A study of Mus musculus with 4 samples.

Results

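The genes described here are those in which 40% or more of the reads assigned to the gene lay outside the total that was counted for expression. RNA was sequenced from the wildtype mouse mammary epithelial line EpH4 in 2D culture, in 4 libraries: 2 of untreated Control cells and 2 of cells given PM2.5, which is fine particulate matter from air. The labels give neither the dose nor the time of exposure, give 1 batch value to all 4 libraries, and do not say whether the replicates were separate cultures, so p-values measure only the spread between these libraries, which may be technical. For each gene the authors deposited a raw count and a larger number headed "Total gene reads", and the difference between them is called the outside reads here. The rule kept genes with 400 or more total gene reads over the 4 libraries and a summed outside share of 40% or more. The genes were thus chosen by their outside share, whose level is given as a description. The rule took 1194 of the 10874 genes with 400 total gene reads (10.98%), from a table of 25413 genes.

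A protein-coding gene is transcribed whole, and splicing then removes the introns, so that mature mRNA holds exons alone. Libraries made from polyA RNA still contain some unspliced or partly spliced transcripts. The stretch between a gene's first and last exon can also hold other units: processed pseudogenes, which are copies of a spliced mRNA pasted into the genome, long noncoding RNAs, small nucleolar RNAs and the hairpins from which microRNAs (miRNAs) are cut.

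The headers do not define the total gene reads, and what was counted is inferred here from the lengths behind the RPKM values. Which reads entered the counts was not checked directly. The length recovered from count and RPKM was within 2% of the exons of coding and nonsense-mediated-decay transcripts for 95.7% of the 1152 genes of the set that could be compared with GENCODE M21 (97.5% of all 10721 compared). It was within 2% of the exons of all annotated transcripts for 24.0%. Single-exon genes, which have no intron, had a median outside share of 0.332% and at most 29.4% over 275 genes, and none of them met the rule. Whether the counting used strand is not given in the sources used here, so transcripts on opposite strands of a locus cannot be told apart.

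Levels of counted reads are given in CPM, counts per 1000000 counted reads after scaling between libraries by TMM. Defining markers of the labelled cell type were mostly low: all 11 luminal epithelial markers had a mean below 1 CPM, 5 of them with 0 counts, Krt18 and Epcam included, and 5 of 7 basal markers had a mean below 1 CPM. The basal markers summed to 56.3, 53.7, 24.0 and 22.1 CPM, nearly all of it Krt14, which fell (log2 fold change -1.40, edgeR adjusted p = 1.1e-06). The summed level of 10 fibroblast markers was 2525 to 2890 CPM, higher than that of any other list, of which Col1a2 made up 1811 to 2209 CPM. Leukocyte markers summed to 9.62, 10.5, 16.2 and 18.01 CPM, with Itgam and Cd3e at 0 and Cd68 at 3.63, 4.22, 9.01 and 10.3 CPM. Adipocyte markers summed to 0.526, 0.698, 5.91 and 4.32 CPM, with Adipoq at 0 and Fabp4 at 0.420, 0.465, 5.62 and 4.06 CPM. Their part in the results was not tested, and fewer cells of a type and less RNA per cell cannot be told apart in bulk samples. Counted totals were 19562930, 26206329, 20232277 and 18548478 reads, and 9.81%, 10.5%, 11.7% and 11.6% of all total gene reads lay outside.

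Pseudogenes with a highly expressed parent gene lay in several of the genes with the most outside reads, and 2 of them are shown as examples. The stretches are 120 bases of the annotated pseudogene transcript above the matching coding bases of the parent transcript, from GENCODE M21 (GRCm38), and capitals mark the bases that differ. The window with the most differing bases was taken. Gm13394 lies inside Cfap77 (on GRCm39, chromosome 2, 28816961 to 28945078, minus strand), which codes for a protein of cilia and flagella, and it copies Gapdh, the glycolytic enzyme. It differed from Gapdh at 1 of 1000 aligned bases, and the longest identical run was 654 bases.
Gm13394, bases 227 to 346: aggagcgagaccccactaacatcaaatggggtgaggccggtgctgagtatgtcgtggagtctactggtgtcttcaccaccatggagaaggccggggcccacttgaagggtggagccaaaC
Gapdh, coding bases 227 to 346: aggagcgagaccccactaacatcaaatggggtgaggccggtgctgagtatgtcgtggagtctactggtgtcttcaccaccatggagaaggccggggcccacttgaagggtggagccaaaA
Rps3a3 lies inside the phosphodiesterase gene Pde4d (chromosome 13, 108586482 to 110089995, plus strand) and copies Rps3a1, a protein of the small ribosomal subunit, with 9 differing bases in 795.
Rps3a3, bases 141 to 260: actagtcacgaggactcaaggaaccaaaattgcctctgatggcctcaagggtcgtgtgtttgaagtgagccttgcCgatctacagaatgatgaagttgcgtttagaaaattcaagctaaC
Rps3a1, coding bases 141 to 260: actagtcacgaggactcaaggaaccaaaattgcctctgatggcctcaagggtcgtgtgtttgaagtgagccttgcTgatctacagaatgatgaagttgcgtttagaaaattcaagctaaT

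MiRNA genes on the same strand lay inside 42 genes of the set, 47 miRNA genes in all, of which 43 were matched in the RefSeq table (GRCm38.p6). Mature sequences are shown for the hosts Spaca6 and Tlcd2, whose outside reads made up nearly all of their total gene reads. Capitals mark the seed, bases 2 to 8, which pairs with target mRNAs, and these 4 miRNAs have 4 different seeds.
miR-99b-5p (Spaca6): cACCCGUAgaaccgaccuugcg
let-7e-5p (Spaca6): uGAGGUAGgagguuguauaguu
miR-125a-5p (Spaca6): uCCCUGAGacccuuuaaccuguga
miR-22-3p (Tlcd2): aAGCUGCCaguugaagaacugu

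Over the 4 libraries the 1194 genes held 3646459 total gene reads, of which 1268565 were counted and 2377894 lay outside. These were 23.1% of the outside reads of all genes, and the 10 genes with the most held 18.1% of the set's outside reads. The median outside share was 59.1%, against 12.5% over all genes with 400 total gene reads. The share was 50% or more in 801 genes, 80% or more in 290, 90% or more in 205 and 99% or more in 88. No read was counted for 37 genes in any library, where a floor of 3 counts corresponds to 0.116 to 0.158 CPM.

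**Figure D1:**
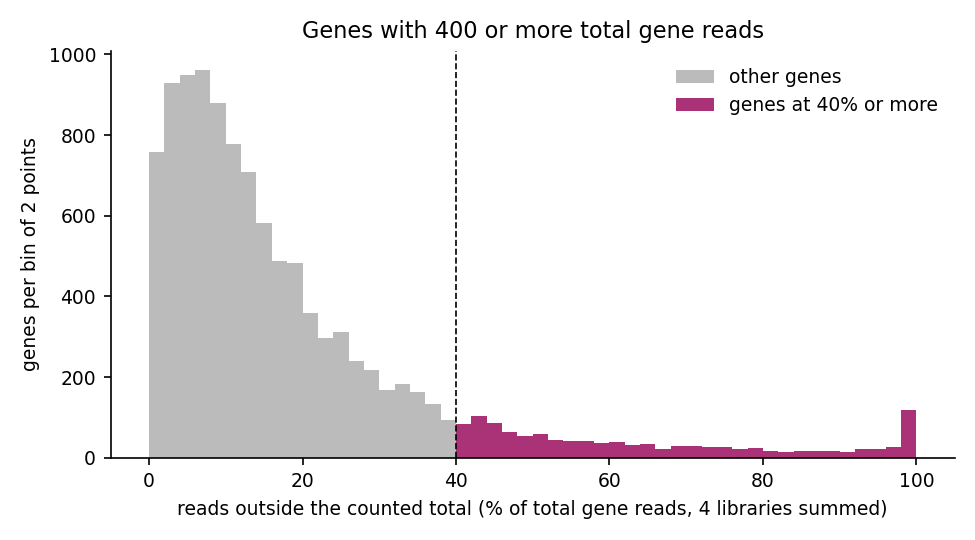
Number of genes (vertical axis) by the percent of total gene reads that lay outside the counted total, 4 libraries summed (horizontal axis, bins of 2 points), for genes with 400 or more total gene reads. The 1194 genes at 40% or more are coloured, and a second peak stands at the right end, where 88 genes had a share of 99% or more.

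At the threshold itself the share changed little from gene to gene. Just inside were Wdr70, which codes for a WD-repeat protein, at 40.07%, and the ubiquitin ligase gene Rnf43 and the protocadherin gene Pcdh10, both at 40.09%. Just outside were the phosphatase gene Ilkap at 39.996%, the pseudouridine synthase gene Pus10 at 39.98% and the Mediator subunit gene Med26 at 39.97%. The rule was met in each of the 4 libraries alone by 1015 genes. At a share threshold of 30% the set held 1937 genes.

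Genes of the set were longer than the others and had few counted reads, while their outside reads were about as dense as elsewhere. The median gene span was 41570.5 bases, against 24943.5 over all genes with 400 total gene reads. The median number of counted reads was 536, against 3576.5, and the median number of outside reads was 902.5, against 556. Per kilobase of span beyond the exonic length behind the RPKM values, the median was 26.9 outside reads, against 24.9 over all those genes. Per exonic kilobase, the median was 193 counted reads, against 998. The rule uses both quantities, so these values describe the set.

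Annotated units inside or across the span were more frequent in the set, which the rule did not use. A pseudogene lay inside 242 genes (20.3%, against 10.1% of all genes with 400 total gene reads). A small noncoding RNA lay inside 130 genes (10.9%, against 6.69%), and a long noncoding RNA overlapped 386 (32.4%, against 21.3%). Longer genes hold more such units: a pseudogene lay inside 2.19% of the set and 1.75% of all genes under 20 kb, 13.9% and 10.4% of those of 20 to 100 kb, and 46.7% and 36.1% of those over 100 kb. At least 1 of these kinds or a miRNA was found in 595 genes (49.9%, against 35.8%), and 597 had none. These 4 kinds leave out units that are themselves genes of the table. Another gene of the table overlapped 477 genes of the set (39.9%, against 31.8%). No unit of the 4 kinds, no such overlap and under 1000 exonic bases of transcripts other than coding and decay ones were found for 236 genes. The same held for 3211 of all genes with 400 total gene reads. An annotated retained-intron transcript was found for 55.0% of the set, against 60.9%.

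Outside reads were set against the reads counted for other genes nested in the span. In 146 genes, the other table genes inside the span had 500 or more counted reads together. Of these 146, 107 had fewer outside reads than that sum, and 43 of the 59 such genes in the set did. Where the outside reads were fewer, not all reads counted for the nested genes can be among the outside reads of the host. How many of them are was not tested. The predicted gene Gm21992, on chromosome 19, is one with nested coding genes, and 94.7% of its reads lay outside. The predicted gene Gm14410, on chromosome 2, had outside reads at 103, 113, 114 and 109 CPM of the counted reads, with overlapping groups.

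The genes with the most outside reads fell into hosts of near-copies of other genes, hosts of long noncoding RNAs, and a few with neither. Levels of outside reads are given in CPM on the scale of the counted reads, that is outside reads of the gene per 1000000 TMM-scaled counted reads of the library, always in the order Control 1, Control 2, PM2.5 1, PM2.5 2. Cfap77 had 108 counted reads and 99.8% of its reads outside, at 567, 651, 640 and 680 CPM. Its 4 libraries did not separate by group (log2 fold change of outside reads -0.05, SE 0.08, edgeR adjusted p = 0.69). The parent of the copy inside it, Gapdh, stood at 658, 752, 711 and 758 CPM, so the Cfap77 level was 88.2% of it on average.

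Pde6a, a phosphodiesterase subunit gene of photoreceptors on chromosome 18, had 17 counted reads and outside reads at 734, 702, 571 and 513 CPM. Both PM2.5 libraries lay below both Control libraries, and the outside reads fell (log2 fold change -0.58, SE 0.08, edgeR adjusted p = 1.2e-05). It holds Rps2-ps10, 99.4% identical to Rps2, a ribosomal protein gene whose counted reads fell by 0.27 on the log2 scale (SE 0.06, edgeR adjusted p = 0.0045). These log2 fold changes are on unlike scales, since the outside reads were scaled on their own. On the scale of the counted reads, the ratio of Pde6a outside reads in PM2.5 to those in Control was 0.759. Myo3a, a myosin gene of hair cells, had 0 counts and 528, 501, 500 and 521 CPM of outside reads, with the groups overlapping. The span of Myo3a holds unprocessed copies 97.6%, 96.7% and 95.9% identical to the mitochondrial genes mt-Co1, mt-Nd2 and mt-Co2.

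Pde4d, the host of the Rps3a1 copy, had outside reads at 507, 524, 515 and 490 CPM and 45 counted reads. Control libraries together had 3 counted reads and PM2.5 libraries 42, which gives a ratio of 15.8 with a counting interval of 5.06 to 79.9. Fhl2, a LIM-domain adaptor gene of muscle and epithelium, had outside reads at 304, 295, 291 and 303 CPM, with overlapping groups, and holds a 99.4% copy of the ribosomal protein gene Rpl29. Trak1, a gene for an adaptor that ties mitochondria to motor proteins, had 578, 620, 641 and 599 CPM with no annotated unit of these kinds inside it, and 92.1% of its reads lay outside.

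Outside reads also fell in 2 hosts of ribosomal protein copies that were chosen after their values were seen. C9orf72, a gene for a guanine-nucleotide exchange complex subunit, had 187, 187, 144 and 137 CPM and holds a 97.96% copy of Rps2 (log2 fold change -0.58, SE 0.08, edgeR adjusted p = 1.2e-05). In counted reads, C9orf72 had a log2 fold change of -0.35, and the median of its 50 nearest genes on the chromosome was -0.51. The part of position in the fall of its outside reads was not tested. Cnot6, a deadenylase gene with a 99.7% copy of Rpl30, had 187, 185, 167 and 161 CPM (log2 fold change -0.35, SE 0.08, edgeR adjusted p = 0.0028), but missed the threshold when scaled with the factors of the counted reads (log2 fold change -0.18). Both PM2.5 libraries lay below both Control libraries in both of these genes.

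All hosts of such copies in the set were then counted. A pseudogene could be matched to a coding parent, at 80% identity or more over at least 50% of its length, in 203 genes of the set. In 77 of them the identity was 95% or more and the parent stood at 100 CPM or more. On the scale of the counted reads, the parent was lower in PM2.5 in 60 of these 77 and the outside reads of the host in 26, both together in 23. On that scale the outside reads of all genes were shifted up in PM2.5 by 0.17 log2, which makes lower hosts less frequent. The numbers 60 and 26 therefore do not tell whether hosts follow their parents. The log2 ratios of host and parent had a Pearson r of 0.124 across the 77 hosts, which share libraries and in part the parent, so the value is descriptive. Outside reads passed the test upward in 19 of the 77 and downward in 19 (24.7% each), beside 10.4% higher and 9.24% lower over all genes tested and 21.4% and 12.1% in the set.

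**Figure D2:**
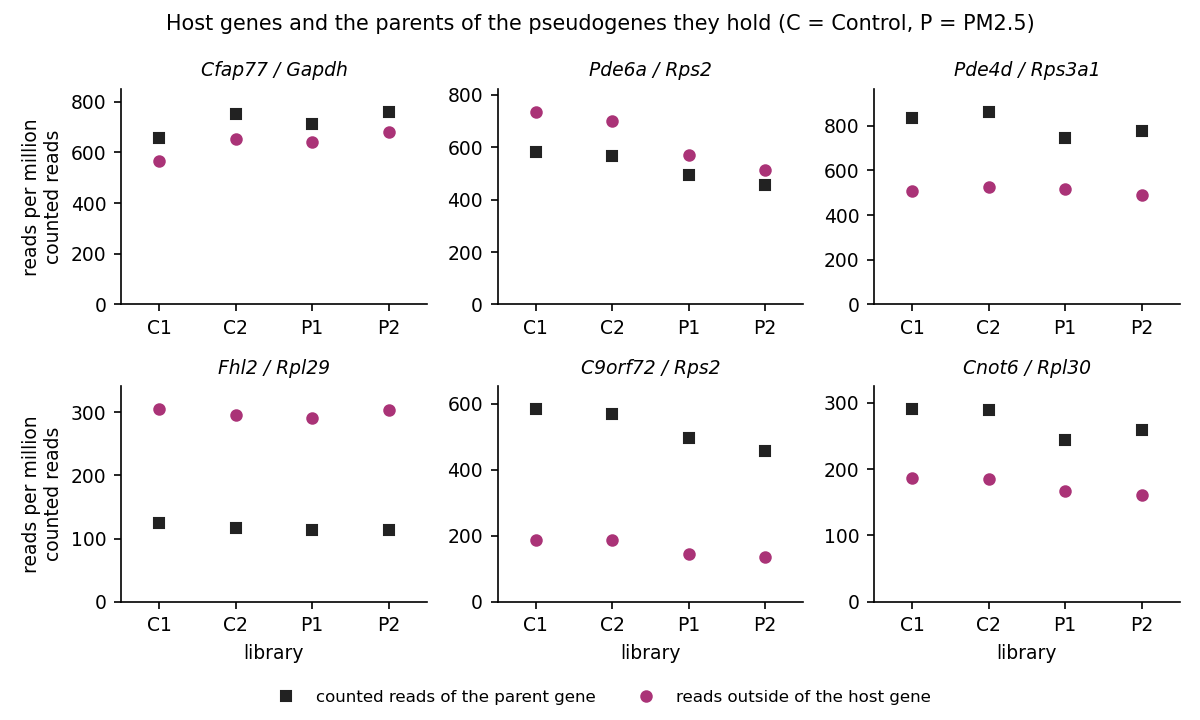
Outside reads of 6 host genes (circles) and counted reads of the parent of a pseudogene inside each (squares), both in CPM of the counted reads (vertical axis), in the libraries Control 1 and 2 (C1, C2) and PM2.5 1 and 2 (P1, P2). The outside reads of Pde6a and C9orf72 are lower in both PM2.5 libraries, while the outside reads of Cfap77, Pde4d and Fhl2 overlap between groups.

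Hosts of long noncoding RNAs formed a second group. The predicted gene Gm26992 (chromosome X, 102465616 to 102525311) spans Xist, the RNA that coats the inactive X chromosome, on the opposite strand and Tsix, its antisense, on the same strand. It had the most outside reads of the set, at 745, 880, 1313 and 1400 CPM. Both PM2.5 libraries lay above both Control libraries (log2 fold change 0.57, SE 0.08, edgeR adjusted p = 8.5e-06), and its few counted reads rose as well (9.78, 11.3, 14.6 and 16.8 CPM, log2 fold change 0.57, edgeR adjusted p = 0.0054). Kcnq1, a potassium channel gene that spans the imprinted antisense RNA Kcnq1ot1 and was chosen after its values were seen, had 1 counted read and outside reads at 122, 145, 162 and 163 CPM. Those of Kcnq1 did not pass the test (log2 fold change 0.11, edgeR adjusted p = 0.36).

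Tug1 and Snhg4, long noncoding genes that the table does hold, were both in the set, each the only gene of its list with 400 total gene reads. Most genes of these lists are absent from the table, which holds 1 of 20 nuclear long noncoding RNAs and 2 of 19 small nucleolar RNA hosts. Tug1, a mostly nuclear RNA, had a length behind its RPKM of 1612 bases, against 9734 annotated exonic bases, and 91.2% of its reads lay outside. Its outside reads were 196, 202, 142 and 144 CPM and fell (log2 fold change -0.65, SE 0.08, edgeR adjusted p = 2.5e-06). Its counted reads, at 19.3, 19.4, 13.7 and 13.6 CPM, fell too (log2 fold change -0.50, edgeR adjusted p = 0.0028), but missed the threshold once set against the median of the 50 nearest genes on the chromosome. Snhg4, a host of small nucleolar RNAs, had outside reads at 211, 184, 139 and 121 CPM, which fell (log2 fold change -0.78, SE 0.09, edgeR adjusted p = 2.3e-06), while its counted reads did not pass the test (log2 fold change -0.27, edgeR adjusted p = 0.14).

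Among 5 hosts of small RNAs, chosen after their values were seen, the outside reads of 1 passed the test. Spaca6, a sperm membrane protein gene on chromosome 17, had 378 counted reads and 96.1% of its reads outside, at 118, 120, 100 and 102 CPM. Both PM2.5 libraries of Spaca6 were lower (log2 fold change -0.40, SE 0.08, edgeR adjusted p = 0.0011). With the factors of the counted reads its log2 fold change was -0.23 and missed the threshold. Tlcd2, a gene for a membrane lipid regulator that holds the miR-22 host transcript, had 37.4, 39.7, 45.1 and 50.2 CPM (log2 fold change 0.13, edgeR adjusted p = 0.34). Hoxc5, a homeobox gene with Mir196a-2 and Mir615 inside it, had 30.3, 36.0, 39.8 and 40.4 (log2 fold change 0.10, edgeR adjusted p = 0.49). Kansl2, a subunit gene of a histone acetyltransferase complex that holds 2 small nucleolar RNAs and Mir1291, had 135, 125, 147 and 134. Tex14, a germ cell gene that holds U1 and U3 RNA genes, had 224, 232, 319 and 271 (log2 fold change 0.20, edgeR adjusted p = 0.091). Over the 42 miRNA hosts, outside reads rose in 11 and fell in 5 (26.2% and 11.9%). The shares were 10.4% and 9.24% over all genes tested, and 21.4% and 12.1% in the set. The miRNAs themselves were not measured by these libraries.

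The treatment comparison asks which of these genes differ after exposure to PM2.5, and it was made separately for counted and outside reads. In counted reads, 253 genes of the set rose and 96 fell of 1052 tested (24.0% and 9.13%), beside 19.2% higher and 20.4% lower over all 12478 genes tested. The median log2 fold change was 0.12 in the set and 0.01 over all genes. In outside reads, 255 rose and 144 fell of 1194 tested (21.4% and 12.1%), beside 10.4% and 9.24% over all 12208 genes tested, with medians of 0.07 and 0.00. The rule favours genes with many outside reads (median 902.5, against 556 over all genes with 400 total gene reads), and more reads make a call easier. Higher shares of calls in outside reads, here and in parts of the set, cannot be told apart from this. The outside reads as a whole were higher relative to the counted reads in PM2.5, and their own scaling takes out a log2 shift of 0.17. Fold changes of outside reads therefore lie below the ratio of the CPM values by that amount. With the scaling of the counted reads instead, 398 rose and 67 fell. DESeq2 called 149 higher and 52 lower in counted reads, and 143 and 75 in outside reads.

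Fewer calls were made in counted reads without PM2.5 replicate 2 (153 higher) and in outside reads without PM2.5 replicate 1 (94 lower). Of the 1194 genes, 84 would miss 400 total gene reads at the level of their lower group, and 67 and 24 lay under 40% in the Control and PM2.5 libraries summed. Taking genes that pass the rule through 1 group in this way favours a difference between groups, though near the thresholds it can be small. Among the 1021 others, counted reads rose in 199 and fell in 85 of the 899 tested (22.1% and 9.45%, beside 19.2% and 20.4% over all genes). Outside reads rose in 194 and fell in 126 of them (19% and 12.3%, beside 10.4% and 9.24%).

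Where both kinds of read passed the test, which were tested in the same libraries, the directions were mostly the same. Of 1052 genes tested in both, 135 rose in both, 62 fell in both, 147 passed in counted reads alone and 146 in outside reads alone, and 557 passed in neither. The same counts were not made over all genes, so they describe the set only. In 5 genes the directions were opposite. Among them are Zfp51 and 2310033P09Rik with more counted and fewer outside reads, and Ndufaf5 and Rbbp8 with fewer counted and more outside reads. At least 1 of the calls was lost with DESeq2 and without single libraries in Zfp51, Ndufaf5 and Rbbp8. For the outside reads of Zfp51, the log2 fold change was -0.27, -0.33 and -0.25 without Control replicate 2, PM2.5 replicate 1 and PM2.5 replicate 2, and -0.11 with the scaling of the counted reads, where the call was lost too. The outside reads of Ndufaf5 missed the threshold without any 1 of the 4 libraries (0.31 to 0.37), and the counted reads of Rbbp8 without PM2.5 replicate 1 (-0.24). These alternatives were not run for 2310033P09Rik.

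**Figure D3:**
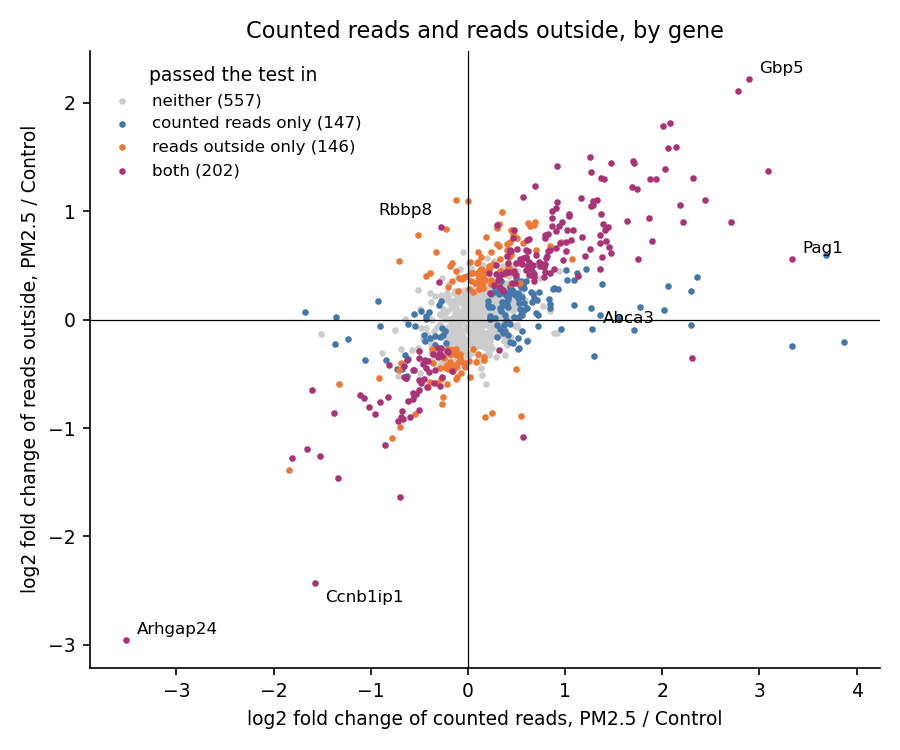
Log2 fold change of counted reads (horizontal axis) against that of outside reads (vertical axis), PM2.5 over Control, for the 1052 genes of the set tested in both; colours show in which test a gene passed. Points in both tests lie mainly along the diagonal, while Abca3 and Pag1 lie to the right of it.

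Pag1 had the largest rise in counted reads among the named genes at a mean of 1 CPM or more whose groups did not overlap. Pag1 codes for a membrane adaptor that holds the kinase Csk at the plasma membrane, and it had 1.16, 0.969, 11.0 and 10.3 CPM (log2 fold change 3.34, SE 0.20, edgeR adjusted p = 1.6e-06). Its outside reads, at 3.94, 3.88, 5.91 and 7.005 CPM, rose by less (log2 fold change 0.56, edgeR adjusted p = 0.023), a call lost without Control replicate 2 (0.48) or PM2.5 replicate 2 (0.42). Gbp5, an interferon-inducible GTPase, rose in counted reads (0.736, 0.698, 4.26 and 6.43 CPM, log2 fold change 2.89, SE 0.31, edgeR adjusted p = 6.2e-05) and in outside reads (1.21, 0.891, 4.99 and 5.85 CPM, log2 fold change 2.22, SE 0.25, edgeR adjusted p = 6.6e-07). Gbp5 and Pag1 libraries did not overlap between groups. Tspan32, a tetraspanin gene, rose by 3.09 (SE 0.38), Xkr6, the host of Mir598, by 2.78 (SE 0.35), Cdh23, a cadherin of hair cells, by 2.71 (SE 0.32), and Pard3b, a cell polarity gene, by 2.44 (SE 0.20) on the log2 scale. Outside reads rose in these 4 genes also, by 1.37, 2.11, 0.90 and 1.10. Ptges, the prostaglandin E synthase gene, chosen after its values were seen, rose in both (counted 1.63, 2.67, 8.33 and 10.1 CPM, log2 fold change 2.06; outside 7.52, 10.3, 28.4 and 32.0 CPM, log2 fold change 1.58). The SE of Pag1, Tspan32 and Xkr6 lies below counting error alone, and Pag1, Gbp5, Tspan32 and Xkr6 are among the genes that met the rule through 1 group.

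Of the falls chosen in the same way, that of Arhgap24 was the largest. The gene codes for a protein that switches off the GTPase Rac, and it had 13.9, 18.4, 1.45 and 1.37 CPM (log2 fold change -3.52, SE 0.20, edgeR adjusted p = 1.4e-06). Its outside reads, at 11.5, 13.2, 1.70 and 1.90 CPM, fell by 2.95 (SE 0.17, edgeR adjusted p = 1.5e-11), so counted and outside reads were both low in both PM2.5 libraries. A4galt, the synthase of the glycolipid Gb3, had 9.04, 13.3, 3.58 and 3.58 CPM (log2 fold change -1.65, SE 0.20, edgeR adjusted p = 0.00015). Rcan2, an inhibitor of calcineurin, had 9.09, 9.92, 3.34 and 4.00 CPM (log2 fold change -1.38, SE 0.16, edgeR adjusted p = 0.00012). Outside reads fell by 1.20 in A4galt and by 0.87 in Rcan2. Cntnap4, Aff3 and Fyb2 fell by 1.81, 1.61 and 1.53 in counted reads on the log2 scale, at 0.369 to 3.73 CPM in all libraries. Arhgap24, Cntnap4 and Fyb2 met the rule through 1 group, and the SE of the outside reads of Arhgap24 lies below counting error alone.

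Genes with few or no counted reads could be compared in their outside reads only, and which transcripts these reads come from was not tested. Of the 142 genes not tested in counted reads, 30 rose and 21 fell in outside reads (21.1% and 14.8%). Among the 37 with 0 counts, 12 rose and 7 fell (32.4% and 18.9%), beside 10.4% and 9.24% over all genes tested and 21.4% and 12.1% in the set. Sntg1, a syntrophin gene of neurons with 0 counts, had 38.1, 33.2, 84.6 and 92.5 CPM of outside reads (log2 fold change 1.14, SE 0.10, edgeR adjusted p = 1.6e-08). Sntg1 holds 6 pseudogenes matched to a coding parent, 1 of them a 100% copy of Cks2. Or5m3b, an olfactory receptor gene with 0 counts, had 14.4, 15.8, 36.0 and 37.2 (log2 fold change 1.10, SE 0.10, edgeR adjusted p = 3.4e-08). Dnah7a, Epo and Cntnap2, also with 0 counts, had 14.0 to 32.3 CPM of outside reads in all libraries and did not pass the test.

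Larger changes were found in 5 further genes with few counted reads, which were chosen after their values were seen. Vmn2r22, a vomeronasal receptor gene with 0 counts (chromosome 6, 123586717 to 123627684), had 18.4, 17.9, 2.03 and 2.00 CPM of outside reads (log2 fold change -3.33, SE 0.15, edgeR adjusted p = 4.3e-13). Galntl6, a gene of the N-acetylgalactosaminyltransferase family, had 11.4, 11.2, 1.65 and 1.69 (log2 fold change -2.92, SE 0.17, edgeR adjusted p = 3.3e-11). Ccnb1ip1, a ubiquitin ligase gene of meiosis, had 8.67, 7.64, 1.65 and 1.74 (log2 fold change -2.43, SE 0.20, edgeR adjusted p = 5.2e-09). Cfap299, a cilia gene, had 7.88, 8.14, 35.8 and 34.2 (log2 fold change 1.96, SE 0.11, edgeR adjusted p = 1.5e-11). Klhl1, a kelch protein gene of neurons with 0 counts, had 1.16, 2.33, 10.8 and 9.16 (log2 fold change 2.29, SE 0.20, edgeR adjusted p = 2.2e-08). Both PM2.5 libraries lay on 1 side of both Control libraries in all 5. Vmn2r22, Galntl6, Ccnb1ip1 and Klhl1 met the rule through 1 group, and the SE of Vmn2r22 and Galntl6 lies below counting error alone.

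**Figure D4:**
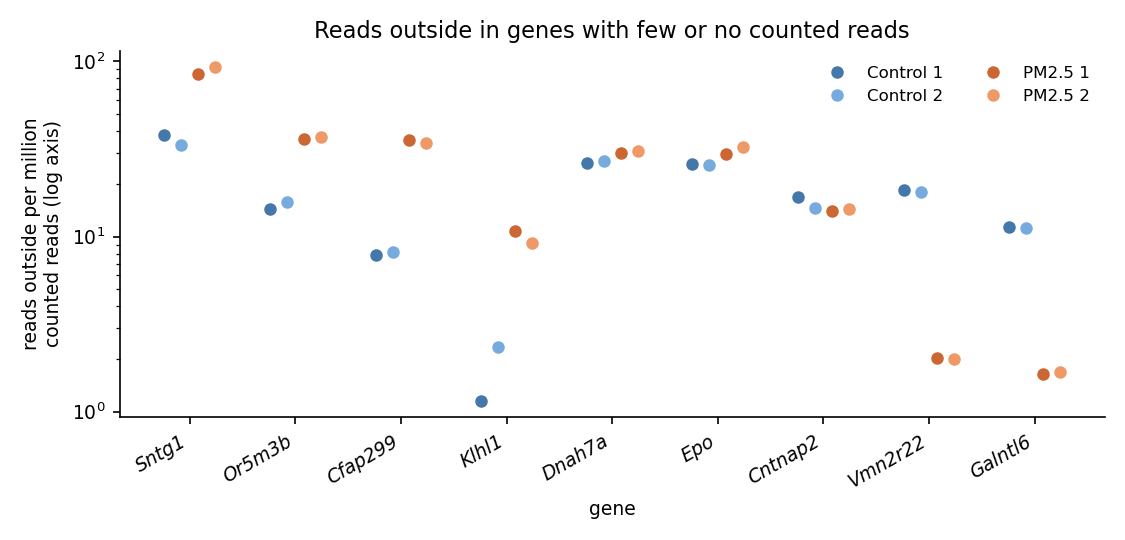
Outside reads in CPM of the counted reads (vertical log axis) in each library for 9 genes with few or no counted reads (horizontal axis). The PM2.5 libraries lie above the Control libraries in Sntg1, Or5m3b, Cfap299 and Klhl1 and below them in Vmn2r22 and Galntl6.

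The share of reads outside was slightly higher in the PM2.5 libraries, in the set and in the other genes. Of the set's total gene reads, 64.1%, 64.9%, 66.0% and 65.7% lay outside, with a 95% Wilson interval of 63.95% to 64.16% for the first, which covers counting error only. The group means were 64.5% ± 0.60 and 65.9% ± 0.23 (SD, n = 2). In the other genes with 400 total gene reads the values were 7.65%, 8.24%, 9.11% and 9.04%. Both PM2.5 libraries lay above both Control libraries, but an exact permutation test of 2 against 2 cannot go below p = 0.333. Both PM2.5 libraries lay above both Control libraries in 404 genes of the set (33.8%) and below them in 178 (14.9%), beside 43.4% and 9.67% of all genes with 400 total gene reads.

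For each gene the odds of a read lying outside were then compared between groups. They rose in 89 genes and fell in 32 of 1046 tested (8.51% and 3.06%), beside 9.28% higher and 0.563% lower over all 10298 genes tested. The median log2 change of the odds was 0.09 in the set and 0.16 over all genes. With each kind of read on its own scaling, which sets a gene against the shift of all genes, 29 rose and 59 fell. DESeq2 with the same design gave an adjusted p for 92 of the 1046 genes and called 5 and 3 of these. Without Control replicate 1, PM2.5 replicate 1 or PM2.5 replicate 2, the odds rose in 50, 22 and 32, and they fell in 18 and 19 without PM2.5 replicate 1 or 2. Among the 1021 genes that met the rule in both groups, 69 rose and 19 fell.

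Where the odds fell, it was mostly counted reads that rose: 30 of the 32 genes had more counted reads in PM2.5, and 2 did not pass that test. Where the odds rose, outside reads rose in 46 of 89 and counted reads fell in 24. Both kinds of read enter the odds, so these calls are tied to them by construction. Such counts were not made over all genes, and they describe the set only. The share of Pag1 was 77.3%, 80%, 35.0% and 40.4% (log2 change of the odds -2.62, SE 0.28, edgeR adjusted p = 3.1e-11). Abca3, a lipid transporter of lamellar bodies, had 17.6, 17.7, 42.1 and 43.5 CPM counted and 20.1, 22.1, 21.7 and 23.0 CPM outside, so its share went from 53.3% and 55.6% to 33.9% and 34.6% (log2 change of the odds -1.20, SE 0.14, edgeR adjusted p = 4.1e-10). Cfb, complement factor B of the alternative pathway, and Rb1, the retinoblastoma cell cycle repressor, were chosen after their values were seen. Cfb had 1.94, 2.02, 6.49 and 6.48 CPM counted against 11.7, 12.9, 13.8 and 12.1 CPM outside (log2 change of the odds -1.64, SE 0.22, edgeR adjusted p = 1.2e-07). Rb1 had 55.2, 67.2, 89.5 and 97.9 CPM counted against 51.4, 53.8, 52.3 and 51.04 CPM outside (log2 change of the odds -0.64, SE 0.11, edgeR adjusted p = 4.9e-05). With the libraries of a group summed, Pag1, Abca3 and Rb1 reached 40% in Control and not in PM2.5, and so met the rule through 1 group.

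A higher share came with more outside reads in most of the named genes. Rbbp8, which codes for CtIP, a protein that trims broken DNA ends for repair, had 41.3, 42.3, 33.5 and 35.6 CPM counted and 59.4, 66.9, 125 and 131 CPM outside. Its share was 59.0%, 61.3%, 78.8% and 78.7% (log2 change of the odds 1.29, SE 0.11, edgeR adjusted p = 3.7e-15). An antisense RNA overlaps the gene. Parp16, an ADP-ribosyltransferase of the endoplasmic reticulum, rose in share from 65.6% and 68.8% to 80.1% and 77.2% (log2 change of the odds 0.85, SE 0.15, edgeR adjusted p = 3.9e-05), and Gabpb1, a subunit of the GABP transcription factor, from 44.0% and 51.6% to 59.7% and 59.4% (0.68, SE 0.12, edgeR adjusted p = 7.8e-05). The call for the outside reads of Gabpb1 (log2 fold change 0.30) was lost with DESeq2 and without Control replicate 1, PM2.5 replicate 1 or PM2.5 replicate 2 (0.22, 0.30 and 0.29). Filip1l, a gene for a filamin-interacting protein relative, differed from these 3: its counted reads fell (79.6, 72.8, 43.5 and 42.9 CPM, log2 fold change -0.82, edgeR adjusted p = 1.8e-05) and its outside reads fell less (319, 288, 243 and 271 CPM, log2 fold change -0.41, edgeR adjusted p = 0.0016). The call for its share was lost without PM2.5 replicate 2 (log2 change of the odds 0.49), and that for its outside reads under the scaling of the counted reads (log2 fold change -0.24).

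Further genes with a higher share, chosen after their values were seen, included Btd and Scg5. Btd, the gene of biotinidase, had outside reads at 11.7, 13.2, 26.6 and 24.7 CPM and Scg5, a chaperone of prohormone convertase, 11.4, 11.7, 25.5 and 26.3. Both rose (edgeR adjusted p = 2.8e-06 and 4.7e-07), Btd by 0.87 on the log2 scale (SE 0.11). Atxn1, a transcriptional repressor gene, had 54.1, 54.1, 55.7 and 55.1 CPM counted and 35.6, 40.6, 58.3 and 57.3 CPM outside, and the outside reads rose (log2 fold change 0.43, SE 0.09, edgeR adjusted p = 0.0012). Chka, choline kinase, had 92.4, 90.1, 86.6 and 82.9 CPM and 99.9, 114, 150 and 139 outside (log2 change of the odds 0.54, SE 0.10, edgeR adjusted p = 0.00021). Ndufaf5, an assembly factor of respiratory complex I, went from a share of 33.7% and 38.3% to 49.7% and 49.9% (log2 change of the odds 0.80, SE 0.16, edgeR adjusted p = 0.00029). Btd and Ndufaf5 met the rule in 1 group only, and the call for the share of Scg5 was lost without Control replicate 2 (0.53).

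**Figure D5:**
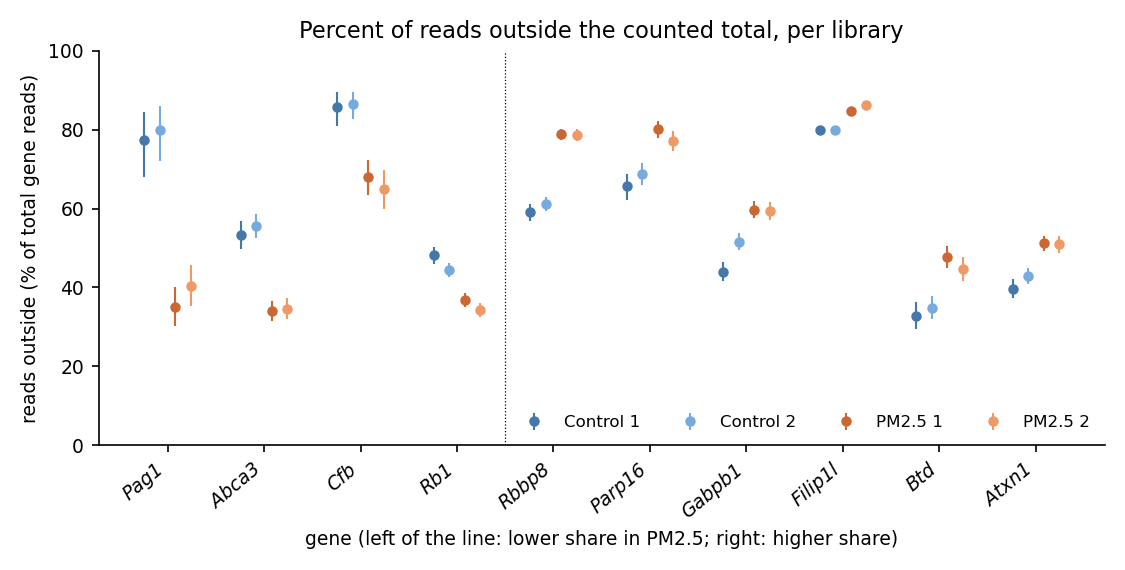
Percent of total gene reads outside the counted total (vertical axis) in each library for 10 genes (horizontal axis); bars are 95% Wilson intervals, which cover counting error only. In the 4 genes left of the dotted line the PM2.5 libraries lie below the Control libraries, and in the 6 on the right above them.

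Lists of RNA processing genes, some of which are known for retained introns, had few genes in the set, and the difference from the 10.98% of all genes was not tested. Clk4, a kinase of splicing factors known for detained introns, was the only one of 18 SR protein and kinase genes with 400 total gene reads (5.56%) in the set. Its share was 44.8%, 48.3%, 48.5% and 47.8%, its counted reads were 29.5, 33.1, 33.0 and 32.3 CPM, and it passed none of the 3 tests. Rsrp1 and Arglu1, both nuclear speckle genes, were 2 of 24 of their list (8.33%), with shares of 41.5%, 45.0%, 48.1% and 47.4% in Rsrp1 and 43.7%, 47.6%, 46.6% and 45.9% in Arglu1. The groups overlapped in Arglu1 and not in Rsrp1, and neither gene passed any of the 3 tests. None of 20 hnRNP genes, 25 core spliceosome genes, 14 genes of nonsense-mediated decay and 77 cytosolic ribosomal protein genes was in the set. The median outside share of the ribosomal protein genes was 1.31%, and that of the SR protein and kinase genes 21.2%.

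Zinc finger and histone genes supplied further members. Of 290 Zfp genes with 400 total gene reads, 37 (12.8%) were in the set, close to the 10.98% over all genes. Their counted reads rose in 8 and fell in 1 (21.6% and 2.70%, beside 19.2% and 20.4% over all genes tested). Their outside reads rose in 7 and fell in 3 (18.9% and 8.11%, beside 10.4% and 9.24% over all genes tested and 21.4% and 12.1% in the set). Over all 276 Zfp genes with 400 total gene reads that were tested, outside reads rose in 18 and fell in 19. Zfp970, with 79.4, 83.8, 106 and 105 CPM of outside reads, had the most of them and did not pass the test (log2 fold change 0.20, edgeR adjusted p = 0.098). Zfp865 followed with 45.6, 48.5, 52.0 and 51.1 CPM outside and Zfp973 with 35.9, 43.0, 50.1 and 47.8 CPM, and neither passed the test. The histone genes H2bc6 and H2bc22, 2 of 22, had outside reads at 5.31, 7.25, 13.5 and 13.9 and at 5.15, 6.05, 9.83 and 8.32 CPM. Both rose (log2 fold changes 0.94 and 0.52, edgeR adjusted p = 2.3e-05 and 0.012), and the call of H2bc22 was lost without PM2.5 replicate 1 (0.40). Replicative histone mRNAs lack a polyA tail in the main, so a polyA library samples them in part.

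Transcription factors of the mammary epithelium that were in the set, chosen after their values were seen, showed small changes or none that passed. Runx1 rose in counted reads (57.0, 64.8, 72.7 and 74.3 CPM, log2 fold change 0.27, edgeR adjusted p = 0.016), a call lost without Control replicate 1 (0.18) or PM2.5 replicate 2 (0.25). Runx2 fell (93.0, 96.1, 71.8 and 75.2 CPM, log2 fold change -0.36, edgeR adjusted p = 0.0012). Gata3, a factor of luminal cells, stood at 98.0, 94.0, 91.3 and 94.6 CPM and 80.9, 78.5, 91.4 and 90.9 outside, and passed no test. Trp63, a basal factor, had 2.10 to 2.32 CPM and 57.0% to 60.7% of its reads outside.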

How the data were processed

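Raw counts per gene and total gene reads, also whole-number counts, were deposited by the authors without normalization, and RPKM values were deposited beside them, per the file headers. The submitters' processing notes name the GRCm39 build; how reads were aligned and counted is not given in the sources used here. Libraries were made with a stranded polyA kit from 750 ng of total RNA, per the labels' protocols.

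Outside reads are total gene reads minus counts. The 3 tests, on counted reads, on outside reads and on the odds of a read lying outside (a term for kind of read by treatment, library as block, at least 40 reads of each kind), used edgeR 4.0.16 in R 4.3.3: filterByExpr, TMM, the quasi-likelihood F test over the whole table, Benjamini-Hochberg adjustment and a threshold of 0.05. Each SE was obtained as the size of the log2 fold change divided by the root of F. Annotated units came from GENCODE M21 (GRCm38), matched by gene identifier for 1192 genes, and no coordinates were moved between builds. Pseudogenes were aligned to coding transcripts with blastn 2.17.0. The tests were checked on simulated data made from these libraries. Of genes changed 2-fold, 87.8% were recovered in counted reads, 91.5% in outside reads and 91.8% in the odds (49, 47 and 49 genes changed, of 12440, 12166 and 10304). All simulated reads had 1 dispersion, a measure of spread beyond counting error. It was close to the 0.00297 of the counted reads and below the 0.00469 of the outside reads. In the simulated odds, the shift of all outside reads between libraries was removed. Recovery in the real outside reads and odds may thus be lower.

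The genes of the set and the gene lists were chosen with earlier results of these data known. Named genes are those with the most outside reads or the highest share, the largest called changes in counted reads at a mean of 1 CPM or more without overlap between groups, the smallest p for the odds, up to 3 of each list, 3 predicted genes and those at the threshold. Others are marked as chosen after their values were seen. Alternatives were other scalings and filters, DESeq2 1.42.0, a replicate block, leaving out each library, a minimum change of 1.5-fold, other thresholds and a correction for position on the chromosome. Some genes that these rules take are not reported here.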

Additional observations from a re-analysis of the deposited data

How the results depend on the processing

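With DESeq2, 149 genes of the set were higher and 52 lower in counted reads, 143 and 75 in outside reads, and 5 and 3 in the odds, where it gave an adjusted p for 92 of 1046 genes. Against a minimum change of 1.5-fold, the numbers were 48 and 10, 48 and 16, and 2 and 8. Leaving out 1 library at a time gave 153 to 230 higher and 67 to 93 lower in counted reads, 178 to 264 and 94 to 147 in outside reads, and 22 to 111 and 18 to 28 in the odds; fewer samples enter these fits. Where an arm was left with 1 library, that library is assumed to vary like the other group. On the scaling factors of the counted reads, an alternative chosen after seeing the data, 398 were higher and 67 lower in outside reads. This scaling leaves in the shift of all outside reads, and the count was not made over all genes. With each kind of read on its own scaling, the odds were higher in 29 and lower in 59. Less the median of the 50 nearest genes, counted reads were lower in 59 genes, and the log2 fold change of C9orf72 in counted reads went from -0.35 to 0.16. The cause of these shifts was not tested.

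At a share threshold of 0.3 the set held 1937 genes, with 411 higher and 219 lower in counted reads, and at 0.5 the numbers were 149 and 57. With a minimum of 1000 total gene reads it held 782 genes. As a median over genes, the outside share per library was 57.2%, 59.2%, 59.9% and 59.7%, and without the 10 genes with the most reads 60.4%, 61.3%, 62.6% and 62.2%. With the replicate number as a block, 289 and 117 genes were called in counted reads, 315 and 183 in outside reads and 93 and 34 in the odds; the 100 calls of named genes were all kept under the block. The labels do not pair the numbers, and deviations of same-numbered libraries correlated at 0.164 in counted reads and 0.039 in outside reads. For the named genes, 989 of 1139 values under an alternative kept their direction and side of the threshold, 149 lost the call and 1 turned. The 14 calls in the odds without an adjusted p from DESeq2 are not among these. At this depth and with 2 libraries a group, 48% of simulated 1.5-fold changes in outside reads were recovered. The simulated spread was below that of the real outside reads, so real recovery may be lower.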
